A study of Triticum aestivum with 8 samples.

Results

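TAHSP173 and TAHSPLW are the only sequence names on the wheat array that contain the letters HSP, the usual abbreviation of heat shock protein. The rule that picks them uses only that name, and each name belongs to 1 probe (A_99_P405772 for TAHSP173 and A_99_P405777 for TAHSPLW) with 1 spot per array, so 2 of 43603 wheat probes are described. The files give neither probe a description or a genome position, and the RefSeq gene table of wheat used here lists neither name. The class of heat shock protein that each transcript encodes is therefore not stated, and any other heat shock genes, whose probes would carry accession or assembly names, were not analysed here.

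Heat shock proteins are molecular chaperones, which bind unfolded or partly folded proteins and keep them from aggregating. In many plants some of them, the small heat shock proteins above all, are also made without any heat stress late in seed maturation, as the embryo prepares to dry out. A dry seed keeps transcripts made during maturation, and after water uptake this stored pool is degraded while new transcripts are made.

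The samples were embryos of the bread wheat (Triticum aestivum) cultivar Norin61, as dry seed (2 arrays), after 16 h of imbibition (3 arrays) and after 24 h of imbibition (3 arrays). Per the labels' protocols, seeds were treated with hypochlorous acid, rinsed, and kept in the dark on wet cotton at 25 °C, and those with a radicle under 3 mm at 16 h or under 7 mm at 24 h were left out, so the imbibed groups hold seeds that had germinated. Each array holds RNA from a pool of 7 embryos, the pools of a stage came from 1 collection of 21 seeds divided into 3, and all are of 1 cultivar, so p-values measure the spread between pools and arrays only. The hours are those of the sample titles, and the description fields of the same samples give 8 h and 16 h instead. The tissue label was not checked against marker genes, because no probe is annotated here.

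The imbibed arrays were brighter as a whole than the dry seed arrays. The summed signal of all wheat probes was 3.68-fold higher at 16 h and 4.62-fold higher at 24 h than in dry seed. On the dry seed arrays the 75th percentile of the probes was 265 and 248, on the 16 h arrays 1181 to 1527, and on the 24 h arrays 1375 to 1739. The E1A_r60 spike-ins, control RNAs added in fixed amounts before labelling, did not brighten with it: their median log2 deviation from their mean over arrays was 0.45 and 0.55 for dry seed, -0.10 to 0.23 for 16 h and -0.50 to -0.26 for 24 h. Relative to them the 75th percentile was 2.88 higher on the log2 scale at 16 h than in dry seed, and 3.49 higher at 24 h. Levels are therefore given on both scales. The 75th percentile scale compares a probe with the other probes of its array, and the spike-in scale compares it with a fixed amount of added RNA in the same 200 ng of total RNA. Rank and share of summed signal need no scaling between arrays.

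TAHSP173 was among the brightest probes of the dry embryo and was far dimmer after imbibition, yet it was still measured at both imbibed times. Its processed signal was 44584 and 32238 in the 2 dry seed arrays. At 16 h it was 12647, 4825 and 3603 in replicates 1, 2 and 3. At 24 h it was 4239.5, 4943 and 4361. All 6 imbibed values lay below both dry seed values with no overlap, and the spot was well above background, by the scanner software's own test, on all 8 arrays. How many other probes separate in the same way, on this or another scale, is not given here. Within the imbibed arrays, 16 h replicate 1 stood apart, and the other 5 lay close together. In tissue pools, fewer cells that hold a transcript and less of it per cell cannot be told apart.

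**Figure D1:**
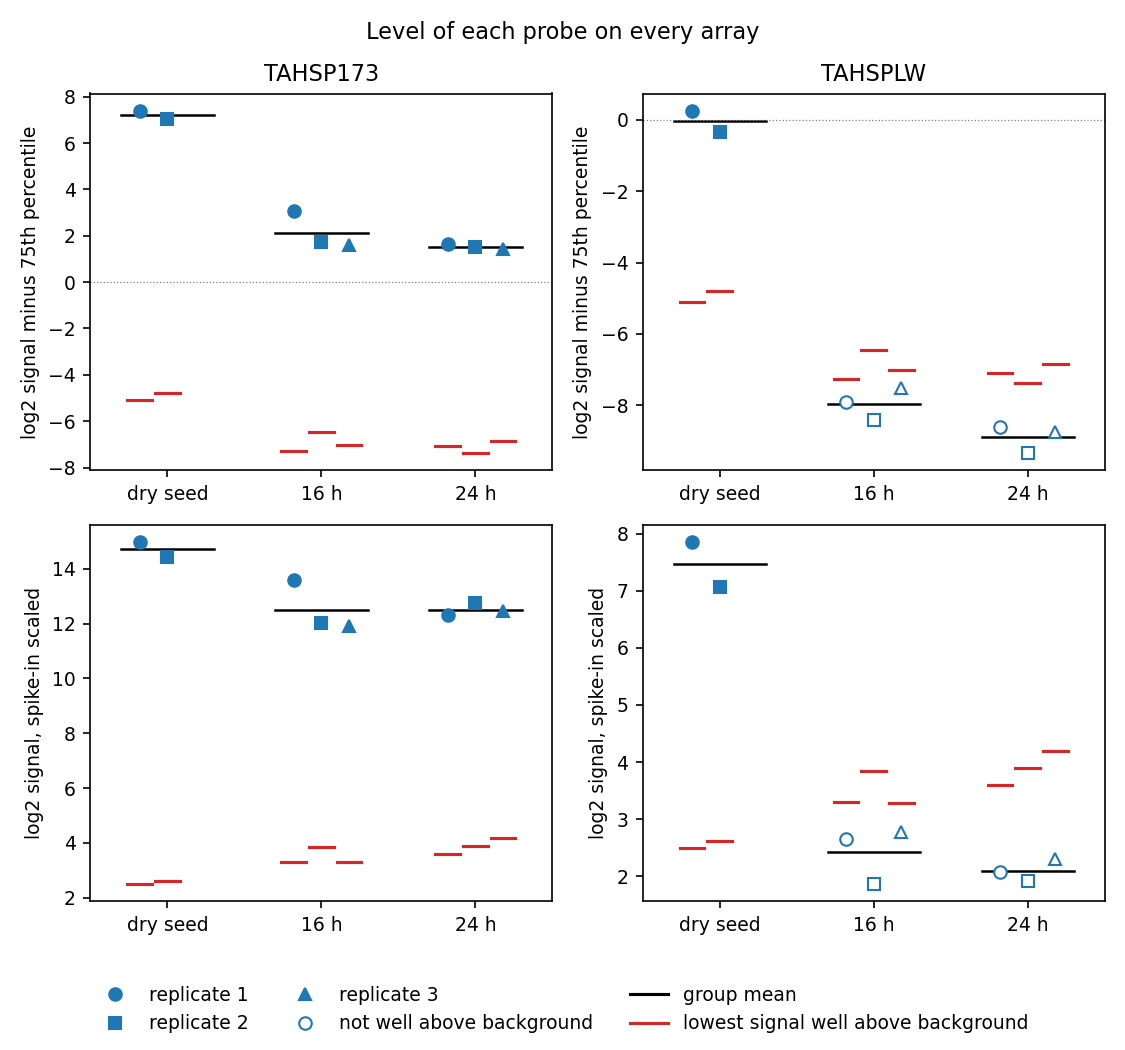
Levels of TAHSP173 (left) and TAHSPLW (right) on the 8 arrays, as log2 of processed signal relative to the 75th percentile of the array (top) and to the E1A_r60 spike-ins (bottom). Points are arrays, black bars are group means, red lines mark the lowest signal well above background, and open symbols are spots not well above background, which all 6 imbibed arrays are for TAHSPLW.

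Relative to the 75th percentile, the dry seed level of TAHSP173 was 7.40 and 7.02 on the log2 scale, which is 169 and 130 times that percentile. At 16 h the level was 3.05, 1.72 and 1.61. At 24 h it was 1.62, 1.51 and 1.42, or 2.67 to 3.08 times the percentile. The group means were 7.21 ± 0.26 in dry seed (SD, n = 2), 2.12 ± 0.80 at 16 h (n = 3) and 1.52 ± 0.10 at 24 h (n = 3). In a limma fit over 30833 probes, the log2 change was -5.09 at 16 h (SE 0.40, 95% confidence interval -6.03 to -4.15, 34.0-fold lower, limma adjusted p 1.47e-05). At 24 h it was -5.69 (SE 0.40, interval -6.63 to -4.75, 51.8-fold lower, limma adjusted p 6.93e-06).

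On this scale a lower call, meaning at least 2-fold with an adjusted p below 0.05, is common: it was made for 26.4% of the tested probes at 16 h and 27% at 24 h, so the call alone says little about TAHSP173. With normexp, another background correction, run with an offset of 50 added to the signals, it was made for 40.8% at 16 h and 40.7% at 24 h. Its size was less common. At 16 h 478 tested probes (1.55%) fell further, and at 24 h 485 (1.57%) did. The median change over all tested probes was -0.06 at 16 h and 0.04 at 24 h, and with normexp -0.67 and -0.63.

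On the spike-in scale TAHSP173 also fell, but by less. The 2 dry seed arrays had a log2 level of 14.99 and 14.43. The 16 h arrays had 13.61, 12.01 and 11.91, and the 24 h arrays 12.31, 12.77 and 12.45, again with no overlap between imbibed and dry seed arrays. The log2 change was -2.20 at 16 h (SE 0.42, interval -3.11 to -1.30, 4.60-fold lower, limma adjusted p 0.00015) and also -2.20 at 24 h (4.60-fold lower, limma adjusted p 0.000137). On this scale few probes were lower, 2.75% at 16 h and 2.5% at 24 h, and the median tested probe was higher, by 2.82 at 16 h and 3.54 at 24 h on the log2 scale. The difference between both sets of values is the rise of the 75th percentile given above.

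After imbibition TAHSP173 left the top of the ranking but stayed in its upper part. In dry seed it ranked 142nd and 182nd of all wheat probes, so that 0.323% and 0.415% of them were brighter. At 16 h it ranked 2388th, 5296th and 5511th, with 5.48% to 12.6% of the probes brighter. At 24 h it ranked 5519th, 5780th and 6042nd, with 12.7% to 13.9% brighter. As a percentile, with 100 the brightest, the mean was 88.3 over the 6 imbibed arrays against 99.6 over the 2 dry seed arrays, a difference of -11.3 (p = 0.0357 by exact permutation over 28 splits, two-sided, which can give no smaller value).

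**Figure D2:**
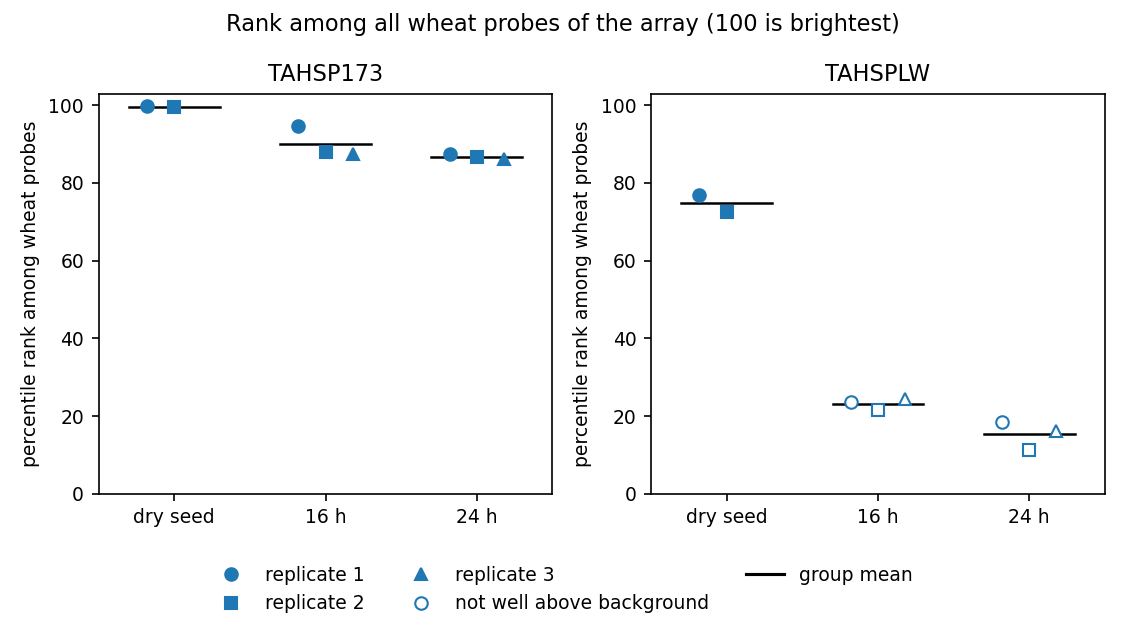
Percentile rank of TAHSP173 and TAHSPLW among all wheat probes of each array (100 is the brightest), with arrays in the order dry seed, 16 h and 24 h. TAHSP173 stayed above percentile 86 on every array, while TAHSPLW was not well above background, where ranks have no order, on the 6 imbibed arrays and at 76.9 and 72.6 on those of dry seed.

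As a share of the summed signal, TAHSP173 made up 1094 and 891 parts in 1000000 (ppm) in dry seed, or 0.109% and 0.0891%, from 1 probe. At 16 h the share was 78.4, 33.0 and 30.9 ppm. At 24 h it was 26.3, 26.0 and 24.0. The mean was 992 ± 143 ppm in dry seed (SD, n = 2), 47.4 ± 26.8 at 16 h (n = 3) and 25.4 ± 1.26 at 24 h (n = 3), or 20.9-fold lower at 16 h and 39.0-fold lower at 24 h than in dry seed. Over the 6 imbibed arrays it averaged 0.00364%, against 0.0993% over the 2 dry seed arrays (two-sided exact permutation p = 0.0357). Probe shares are shares of fluorescence and not of molecules, since probes differ in how well they bind. MTTANADH2 and TATHAUMLP, other probes with a short gene-like name rather than an accession, also had a lower share at both imbibed times. The mean share of MTTANADH2 was 76.3 ppm in dry seed. It was 7.12 at 16 h and 3.50 at 24 h. The mean share of TATHAUMLP was 56.9 ppm in dry seed, then 3.92 and 3.13 at the imbibed times. The difference from TAHSP173 was not tested.

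**Figure D3:**
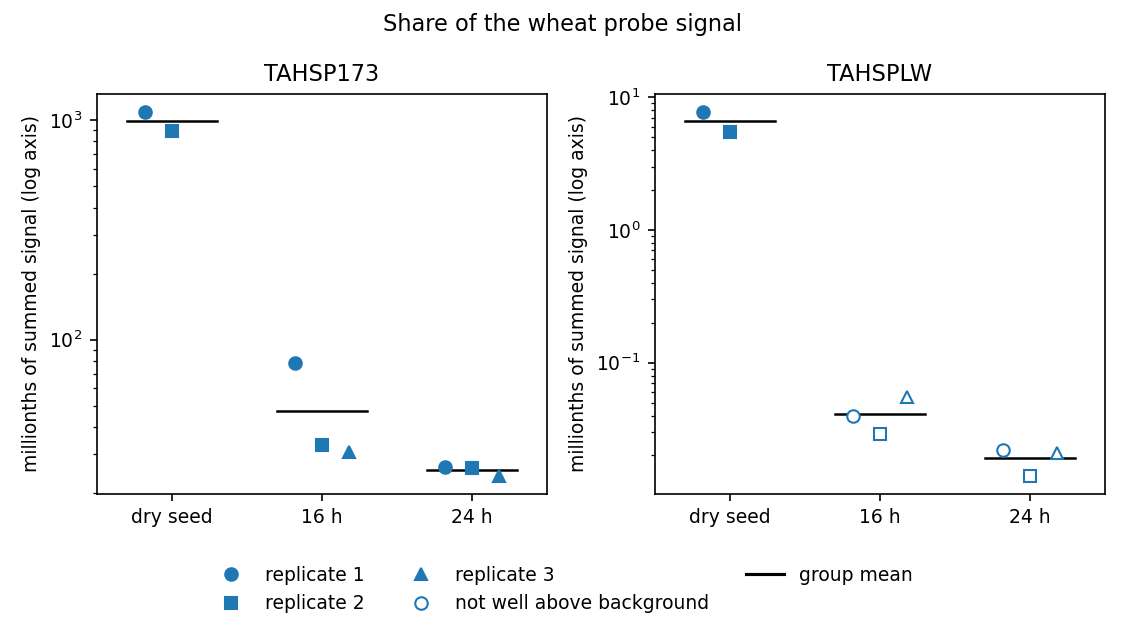
Share of the summed signal of all wheat probes taken by each probe on each array, in ppm on a log axis, with open symbols for spots not well above background and bars for group means. TAHSP173 took 24.0 to 78.4 ppm in the imbibed arrays, against 1094 and 891 in dry seed.

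Between 24 h and 16 h no change of TAHSP173 passed the test. On the 75th percentile scale the log2 difference was -0.61 (SE 0.36, interval -1.45 to 0.23, limma adjusted p 0.19), in a comparison in which 18.4% of the tested probes were called in either direction. On the spike-in scale it was 0.00 (interval -0.81 to 0.81, limma adjusted p 0.998). In rank and share the mean differences were -3.17 percentile points and -0.0022% of the signal. For each the exact two-sided permutation p is 0.1, the smallest that 20 splits allow. All 3 arrays at 24 h lay below all 3 at 16 h, but in rank only just, at 87.34 (24 h replicate 1) against 87.36 (16 h replicate 3). How many other probes separate in this way is not given here. On the spike-in scale all 3 arrays at 24 h lay above 16 h replicates 2 and 3.

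The 16 h values rest in part on replicate 1. TAHSP173 was 1.39 higher on the log2 scale there (2.62-fold) than the mean of 16 h replicates 2 and 3. Over all tested probes the median of the same gap was 0.02, and 635 of them (2.06%) had a gap at least as high. On a line from the dry seed mean (0) to the 24 h mean (1) over all tested probes, replicate 1 stood at 0.838. Replicates 2 and 3 both stood at 0.741. Why TAHSP173 was higher in replicate 1 was not tested. Among the probes called lower at 16 h, replicate 1 was the highest of the 3 in 28.2%. Without it, the change of TAHSP173 at 16 h was -5.55 (46.8-fold lower, limma adjusted p 1.58e-06) against the 75th percentile, and -2.75 against the spike-ins (6.74-fold lower, limma adjusted p 7.2e-08). The difference between 24 h and 16 h was then -0.15 (interval -0.49 to 0.20, limma adjusted p 0.418) on the first scale and 0.55 (interval -0.03 to 1.13, limma adjusted p 0.101) on the second. The mean share at 16 h without it was 31.9 ppm and the mean percentile 87.6.

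The arrays lay on 2 slides that each held all 3 stages. Within slide 1, which held dry seed replicate 1, the log2 change of TAHSP173 was -5.01 at 16 h and -5.77 at 24 h on the 75th percentile scale. Within slide 2, which held dry seed replicate 2, it was -5.41 and -5.56. The percentile fell by 9.77 on slide 1 and by 12.8 on slide 2.

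In the mean of the dry seed arrays, TAHSP173 was the 157th brightest of 43600 wheat probes. The probe just above it, A_99_P620922 (CK209646), also had a dry seed value of 7.21 and changed by -1.48 at 16 h and -1.58 at 24 h on the log2 scale. The probe just below it, A_99_P468892 (TA65674_4565), also at 7.21, changed by -5.94 and -6.95. On the 75th percentile scale, 111 of the 156 probes brighter than TAHSP173 in dry seed were called lower at 16 h and 0 higher. Among all tested probes 26.4% were called lower at 16 h and 27% at 24 h. The median change of the 156 at 16 h was -1.82, and 52 of them fell further than TAHSP173. At 24 h 104 of the 156 were called lower and 0 higher, the median was -2.35, and again 52 fell further. These 156 were taken by their dry seed level, so the counts are a description with no test. All changes in this paragraph are on the 75th percentile scale. On the spike-in scale, changes are about 2.88 higher at 16 h and 3.49 higher at 24 h. Both shifts are larger than the falls of these medians, so the direction of the medians depends on the scale. Calls of the 156 on the spike-in scale are not given here.

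**Figure D4:**
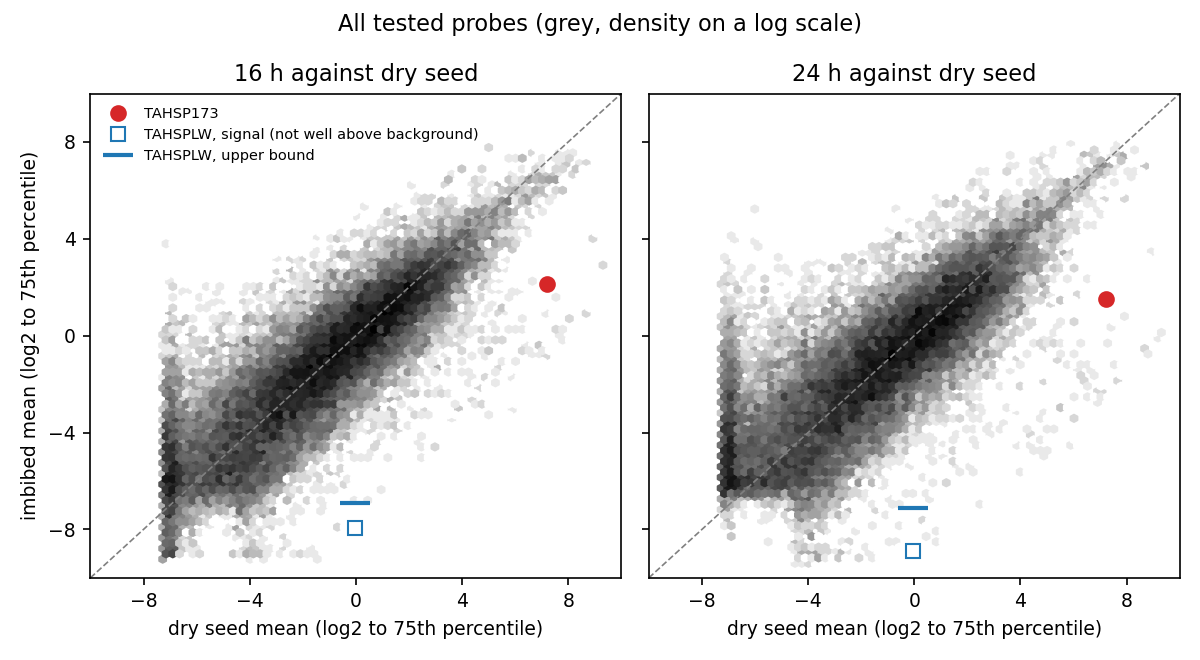
Mean log2 level of every tested probe relative to the 75th percentile at 16 h (left) and 24 h (right), plotted against the dry seed mean, with grey density for all probes, a filled circle for TAHSP173, an open square for the mean signal and a bar for the upper bound of TAHSPLW, and the line of equal level. TAHSP173 lies at 2.12 (16 h) and 1.52 (24 h), against 7.21 in dry seed, and TAHSPLW is not well above background after imbibition, against -0.04 in dry seed.

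Among 24710 other probes well above background in dry seed, the pattern most like that of TAHSP173 over the 8 arrays was that of A_99_P244716 (TA65673_4565), with Pearson's r of 0.9998. Its mean log2 level in dry seed was 6.30, with 1.48 at 16 h and 0.94 at 24 h. The next 4 were A_99_P549557 (TC414061, r 0.9996), A_99_P428097 (TA65673_4565, r 0.9993), A_99_P244706 (TA65671_4565, r 0.9988) and A_99_P008796 (AK335611, r 0.9986). These correlations are descriptions over 8 arrays, which share the large step between dry seed and imbibed embryos: 3187 probes (12.9%) had an r over 0.95, and 57 had one over 0.99.

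**Figure D5:**
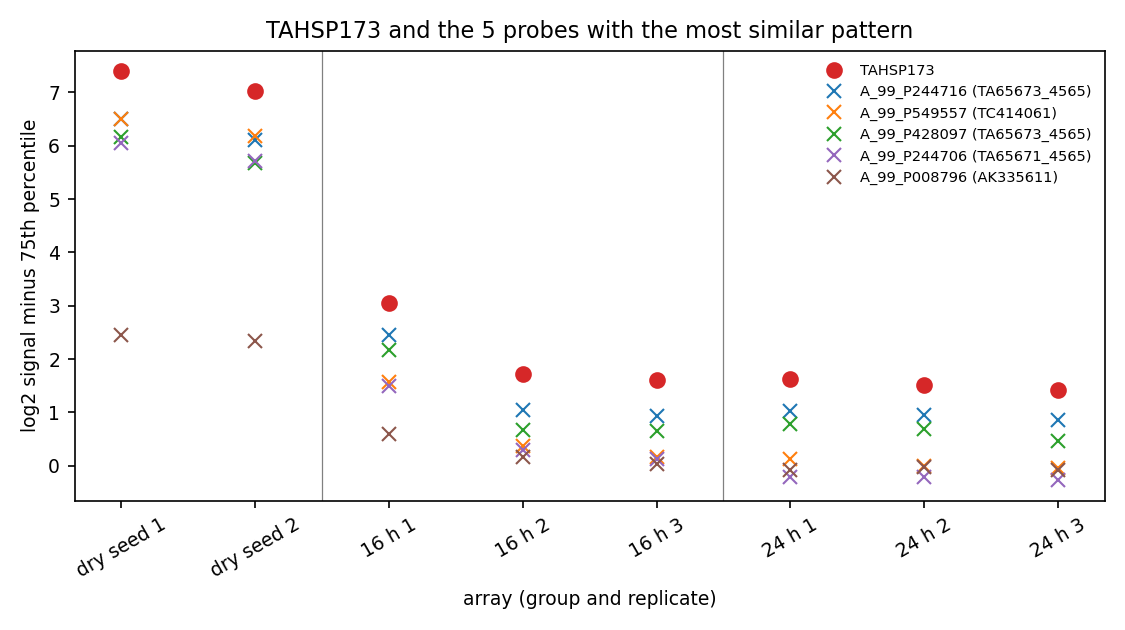
Log2 level relative to the 75th percentile on each of the 8 arrays for TAHSP173 and the 5 probes with the highest Pearson correlation with it. Each probe is lower on all 6 imbibed arrays than on both dry seed arrays, and each is higher in 16 h replicate 1 than in 16 h replicates 2 and 3. The 5 probes were picked for their likeness over these same arrays, so both traits follow from the choice.

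TAHSPLW had a moderate signal in dry seed and was not well above background on any imbibed array. Its processed signal was 317 and 196 in dry seed, well above background on both arrays. At 16 h it was 6.36, 4.27 and 6.43, and at 24 h 3.52, 2.68 and 3.83, not well above background on any of these 6 arrays. By a weaker test of the scanner software, which asks only whether the spot differs from its background, it passed on 3 of the 6. The dimmest probe that counted as well above background had a signal of 7.69 on dry seed replicate 1 and 8.98 on replicate 2. The same limit was 9.09 to 16.8 on the 16 h arrays and 10.1 to 14.2 on the 24 h arrays. TAHSPLW lay below that limit on every imbibed array and at 41.2 and 21.9 times the limit in dry seed, so its imbibed levels are given as bounds.

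Relative to the 75th percentile, TAHSPLW was at 0.26 and -0.34 on the log2 scale in dry seed (mean -0.04 ± 0.42, SD, n = 2), close to the percentile itself. With the imbibed level set at the lowest measurable signal of each array, the fall was at least 117-fold by 16 h and at least 134-fold by 24 h. On the log2 scale these bounds are -6.87 and -7.07. They hold only for the processed signal and for a limit set by the dimmest spot counted as well above background. With normexp and its offset the change was smaller than these bounds, -4.21 at 16 h and -4.50 at 24 h. No p is given with these bounds, since TAHSPLW entered the fit through its dry seed arrays alone and its imbibed signals were not well above background. On the spike-in scale the dry seed level was 7.86 and 7.07. There the fall was at least 15.9-fold by 16 h. By 24 h it was at least 11.9-fold. Bounds give no order of the times. Neither imbibed group was well above background on any array, so the difference between 24 h and 16 h was not measured.

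TAHSPLW ranked 10055th and 11962nd of the wheat probes in dry seed, at percentiles 76.9 and 72.6. On the imbibed arrays it ranked between 32939th and 38658th, where between 28889 and 32007 probes were well above background. These ranks therefore lie among spots not well above background, and the permutation test run on them is not read here. The share of TAHSPLW was 7.77 and 5.43 ppm in dry seed. Set at the lowest measurable signal, the share was at least 77.8-fold lower at 16 h and at least 101-fold lower at 24 h. Like the bounds on the level, these hold only for the processed signal and for that limit.

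Few probes were measured in dry seed alone. Of 24732 probes well above background on both dry seed arrays, 152 (0.615%) were so on no imbibed array. Of all 43603 wheat probes, 3176 showed the opposite pattern, on no dry seed array and on all 6 imbibed ones. The imbibed arrays were brighter as a whole, and 28889 to 32007 probes were well above background on them, against 26165 and 25322 in dry seed. Dim probes could thus pass more easily after imbibition, and the counts of 152 and 3176 do not measure transcripts lost and gained. Of the 152, only 7 were brighter in dry seed than TAHSPLW, whose mean log2 level there was -0.04, against a median of -3.57 over the 152. Next to it in the mean dry seed rank, where it was the 11038th probe, stood A_99_P388122 (TA107531_4565), which changed by -0.46 at 16 h and -1.09 at 24 h, and A_99_P196298 (EU679373), which changed by 0.87 and 0.75.

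The 5 probes most like TAHSPLW over the 8 arrays were A_99_P133695 (CV777201, r 0.9992), A_99_P546482 (TC450940, r 0.9990), A_99_P520632 (BJ313415, r 0.9989), A_99_P439727 (BJ282273, r 0.9985) and A_99_P008311 (BJ255564, r 0.9985). These values rest on imbibed signals of TAHSPLW that are not well above background, and 670 probes had an r over 0.99. TAHSP173 and TAHSPLW had an r of 0.983 with each other. Both were brightest on dry seed replicate 1 on either scale. They differed in level, TAHSP173 being measured on all 8 arrays and TAHSPLW on the 2 of dry seed, but levels of different probes are not compared here beyond that.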

How the data were processed

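The wheat embryo RNA was labelled with Cy3 and hybridised to 1-colour Agilent arrays. Per the file headers, the deposited intensity values were made with background subtraction and spatial detrending of each array (Agilent Feature Extraction 10.7.3.1). The members and lists were chosen with earlier results of these data known. Processed signals were taken to log2 and the array's 75th percentile subtracted, or, for the spike-in scale, the median log2 deviation of 8 E1A_r60 probes. Outlier spots were left out, and 30833 of 43603 probes, those that in 1 group or more were well above background throughout, were fitted with limma 3.58.1 in R 4.3.3 (a mean per group, all 8 arrays). Calls needed a Benjamini-Hochberg adjusted p below 0.05 and a 2-fold change. Ranks and shares were tested by exact permutation. Named beside the members were the 5 most correlated probes, the neighbours in dry seed rank and 2 other short gene-like names. Lists needing annotation were not analysed here.

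The deposited log2 table matched the scanner values scaled to the 75th percentile and centred on each probe's median, in the same direction. The medians of its columns were 0.47 and 0.51 (dry seed), -0.05, 0.00 and -0.04 (16 h), and -0.07, 0.00 and -0.06 (24 h). Its 24 h columns 2 and 3 held each other's scanner values. No wheat spot was saturated. Replicate numbers were not used to pair the samples in the main fit. Same-numbered pairs of arrays correlated at -0.04 to 0.12, with 1 of 7 above 0.1. With 2 or 3 arrays a group these correlations cannot exclude pairing.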

Additional observations from a re-analysis of the deposited data

How the results depend on the processing

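The falls of TAHSP173 at 16 h and 24 h kept their direction under all 20 alternatives run for each and their call under the 18 that give a test (values within 1 slide have none), from -5.55 to -2.20 at 16 h. Unscaled signal, chosen after seeing the data, gave -2.65 and -3.07, and normexp -4.82 and -5.43. The 24 h minus 16 h difference of TAHSP173 changed sign under spike-in scaling (0.000989). The replicate number as a block gave -4.93 at 16 h (limma adjusted p 8.65e-05) and changed no call. For TAHSPLW, whose imbibed values are not well above background, the change at 16 h was -8.43 within slide 1 and -7.19 within slide 2. Its 24 h minus 16 h value was -0.44 and -1.52 there, and -1.18 to -0.72 with 1 array left out. Both sides of this difference are signals not well above background, so these values do not measure a change between the times. The stricter filter gave TAHSPLW no log2 change. Normexp gave it -4.21 at 16 h and -4.50 at 24 h. Ranked only among probes measured on all arrays, TAHSP173 differed by -20.3 percentile points. Called probes at 16 h numbered 16075, against 27608 by spike-ins (96.9% higher, against 49.3%) and 25550 without a filter (30.9% higher), and 16607 with normexp (24.3% higher). At 24 h they numbered 17350, against 28765 (97.3% higher, against 52.1%) and 26690 (33.8%), and 17309 with normexp (27.6%). Between 24 h and 16 h they numbered 5682 (63.2% higher), against 9718 by spike-ins (92.5%), 3528 with normexp and 3310 with the stricter filter (51.1%). With 1 array left out, the imbibed minus dry seed difference was -12.5 to -10.9 percentile points and -0.106 to -0.0855% of signal for TAHSP173. For TAHSPLW it was -57.7 to -53.3 points and -0.000774 to -0.00054%, from imbibed spots not well above background, where ranks have no order. With 1 dry seed array the smallest exact permutation p is 0.143.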

Other observations

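The assembly names TA65670 to TA65679 cover 5 probes on the array. They were looked at because 3 of them are among the probes most like TAHSP173 and 1 is its neighbour in dry seed rank, so their values are a description and no support for a shared pattern. The 4 probes well above background on all arrays changed by -5.94 to -4.75 at 16 h on the log2 scale, in a comparison in which 26.4% of the tested probes were called lower. Each was higher in 16 h replicate 1 than in the mean of 16 h replicates 2 and 3, by 1.15 to 1.52. The other, A_99_P244721 (TA65674_4565), was well above background on only 2 arrays. The files describe none of these names, and whether they and TAHSP173 share sequence was not tested.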
